A study of Mus musculus with 9 samples.

Results

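This report describes PPARγ binding around the enzymes and regulators of intracellular lipolysis in mouse interscapular brown adipose tissue (iBAT). The members were all binding sites (peaks) whose midpoint lay in 6 genomic windows around 7 genes: Pnpla2, Lipe, Mgll, Abhd5, G0s2, Ces1d and Ces1f. They numbered 72 of 66066 peaks, with 8 in the Pnpla2 window, 4 in the Lipe window, 20 in the Mgll window, 8 in the Abhd5 window, 11 in the G0s2 window and 21 in the window that holds both Ces1 genes. Within a window the peaks are numbered along the chromosome. PPARγ chromatin was immunoprecipitated from iBAT of male C57BL/6J mice aged 10 weeks, fed chow ad libitum and kept in a 12h:12h light:dark cycle. Zeitgeber Time (ZT) 0 is the onset of the light (inactive) phase. Tissue was taken every 3 h from ZT0 to ZT21, and per the labels each library was a pool of 8 mice. No time point had a replicate library, so an oscillation was judged against the scatter of the 8 points around a daily curve, and the spread between animals is not known. An input library of ZT12 was not analysed here.

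Intracellular lipolysis strips triglycerides of the lipid droplet of their fatty acids one after another. Adipose triglyceride lipase (ATGL, encoded by Pnpla2) takes the first fatty acid, hormone-sensitive lipase (HSL, encoded by Lipe) acts on diacylglycerols, and monoacylglycerol lipase (encoded by Mgll) releases the last fatty acid and glycerol. ABHD5 (CGI-58) activates ATGL and G0S2 inhibits it, and carboxylesterases of the Ces1 family hydrolyse further neutral lipids. In brown fat the freed fatty acids fuel thermogenesis and activate UCP1, and several of these genes are textbook targets of PPARγ, which binds DNA as a dimer with RXR at DR1 elements, pairs of the half-site AGGTCA with a single base between them.

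The sequences of the DR1 matches come first, and they describe the sequence under the peaks without showing which elements PPARγ reads. Both strands of every peak were searched for AGGTCA, any base, AGGTCA, and matches with at most 1 mismatch among the 12 fixed bases were kept. They were found in 5 of the 72 member peaks (6.94%), against 4.99% of all peaks whose sequence was read. Each is shown 5′ to 3′ on the strand of the match in the RefSeq GRCm38.p6 genome, the build of the files, with the element in capitals.
Mgll peak 2, chr6:88717550-88717562, minus strand: ttgacagcAGGTCACAGGTCAgagctgcc
Pnpla2 peak 4, chr7:141453627-141453639, minus strand: ataagtttAGGTCATAGGTCCaaggggtc
Pnpla2 peak 5, chr7:141468509-141468521, minus strand: gcaggtacAGGTCAAAAGTCActctctgc
Lipe peak 4, chr7:25401911-25401923, plus strand: attagtgaATGTCACAGGTCAcagctgcc
G0s2 peak 1, chr1:193251095-193251107, plus strand: acatgtaaAGGTCAGAGGACAacttatgg

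The element in Mgll peak 2 was the only exact match among the members and lay 6856 bases upstream of the Mgll start site. Counted from 1 at the 5′ end of the element, the others differed from this consensus by A13C in Pnpla2 peak 4, G9A in Pnpla2 peak 5, G2T in Lipe peak 4 and T11A in G0s2 peak 1. The Pnpla2 peak 4 element lay 1555 bases upstream of the Pnpla2 start. The strongest peaks of Lipe, Mgll, Abhd5, G0s2, Ces1d and Ces1f held no match at this limit. With up to 2 mismatches, matches were found in 24 member peaks (33.3%) against 23.6% of all peaks and an average of 34.7% among peaks within 10% of each member's length. Long peaks hold more matches by length alone, and per 10 kb of sequence the members held 0.304 elements with at most 1 mismatch against 0.459 over all peaks.

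An E-box, CACGTG, the motif of the clock factors BMAL1 and CLOCK, lay in 24 member peaks (33.3%) against 16.9% of all peaks. The members are longer than other peaks, with a median of 1332 bases against 813, and among peaks within 10% of each member's length the share with an E-box averaged 27.2%. Among the RefSeq promoters of Pnpla2, Lipe, Mgll, Abhd5 and G0s2 it was found in that of the upstream Lipe start site and in that of the first Mgll start site, where 7.15% of 32851 promoter windows of the same length hold one. Both promoters lie inside peaks called by both tests below (Lipe peak 3 and Mgll peak 4). The 250 bases before each start site are shown on the strand of the gene, with the E-box in capitals.
Lipe, chr7:25395988-25396237, minus strand: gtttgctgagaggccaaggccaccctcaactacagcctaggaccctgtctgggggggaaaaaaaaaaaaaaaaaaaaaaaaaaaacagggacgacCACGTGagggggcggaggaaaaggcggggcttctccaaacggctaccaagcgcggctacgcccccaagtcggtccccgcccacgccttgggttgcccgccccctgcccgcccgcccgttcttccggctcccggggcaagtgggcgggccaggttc
Mgll, chr6:88724162-88724411, plus strand: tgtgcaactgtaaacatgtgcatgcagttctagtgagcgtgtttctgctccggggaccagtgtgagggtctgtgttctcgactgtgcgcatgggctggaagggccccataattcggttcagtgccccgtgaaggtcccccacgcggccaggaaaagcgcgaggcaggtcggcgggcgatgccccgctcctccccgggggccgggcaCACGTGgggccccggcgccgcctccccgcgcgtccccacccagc

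The E-box begins 155 bases before the Lipe start site and 44 bases before the Mgll start site. No DR1 match with up to 2 mismatches lay in the promoter windows of these 5 genes. Ces1d and Ces1f are not part of this comparison, because no promoter sequence was at hand for them. Ces1 peaks 5 and 19, which cover their start sites, held no E-box.

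The last motif was looked up after the daily profiles had been seen. The D-box TTATGTAA, read by the clock-controlled factors DBP, TEF, HLF and NFIL3, occurred 4 times in the strongest Ces1d peak and not at all in the strongest peaks of the other 6 genes. At least 1 copy lay in 6 of the 72 members (8.33%), which were Mgll peaks 7 and 13 and Ces1 peaks 4, 5, 7 and 11. Over all peaks 6.50% held at least one, and 5 of the 66062 peaks read held 4 or more. Of 189 peaks within 10% of the length of the Ces1d peak, 29.1% held at least one and 2 held 4 or more. The 4 copies are shown with 8 flanking bases, on the strand of the match and with the D-box in capitals.
Ces1 peak 5, chr8:93195211-93195218, minus strand: ctctaattTTATGTAAgaagcaaa
Ces1 peak 5, chr8:93196649-93196656, minus strand: ttgagaaaTTATGTAAagagaatg
Ces1 peak 5, chr8:93197828-93197835, plus strand: cagctcagTTATGTAAtctaagct
Ces1 peak 5, chr8:93198014-93198021, minus strand: agaggtgcTTATGTAAgaagctgt

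Of these, the third lay 27 bases and the fourth 213 bases upstream of the Ces1d start site, and the other two lay 1152 and 2590 bases downstream of it, in the gene. The neighbouring Ces1e gene also had a D-box 77 bases before its start site, in Ces1 peak 11. These matches describe the sequence under the peaks, and no binding of D-box factors was measured.

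The libraries held 29572225 to 34264812 reads in peaks, with TMM factors of 0.959 to 1.04. The tissue label was checked by PPARγ peaks near brown adipocyte genes, of which Ucp1 had 8 (the strongest with a mean normalized count of 10552), Cidea 4, Adipoq 3 and Fabp4 2. For other cells, Ptprc had 1 peak with a mean of 58.5, Cd68 none, Pecam1 5 (the strongest with a mean of 1346) and Cdh5 9 (510). In this bulk tissue, a change in the share of cells that bear a site and a change in binding per cell cannot be told apart. The share of reads in the strongest 10% of peaks ran from 44.2% at ZT15 and 44.3% at ZT18 to 48.1% at ZT6.

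Normalized counts below are read counts divided by the TMM-scaled library total and multiplied by the mean total, so that they are on the scale of a count. Oscillation was tested with JTK cycle, here with exact permutation probabilities over all 40320 orders of 8 values and Bonferroni adjustment over 15 templates of 21 and 24 h, and by fitting a 24-h cosine to the raw counts (edgeR quasi-likelihood, P adjusted by Benjamini-Hochberg across the 66066 peaks). A peak was called at an adjusted P under 0.05. JTK called 11.6% of all peaks and the cosine 13.4%, while both tests together called 6.71%. JTK's adjustment does not cover the number of peaks: after Benjamini-Hochberg adjustment its lowest value over all peaks was 0.0968 and none passed. Among the members JTK called 8 of 72 (11.1%) and the cosine 15 of 72 (20.8%), with 6 (8.33%) called by both. The JTK share is thus near that of all peaks. Leaving out one library moved the JTK count to 15 (20.8%, against 13.7% of all peaks) without ZT12 and 13 (18.1% against 11.4%) without ZT18. The cosine count moved to 5 (6.94% against 6.48%) without ZT6, 9 (12.5% against 8.49%) without ZT9, 6 (8.33% against 5.65%) without ZT15 and 3 (4.17% against 4.64%) without ZT18. Without ZT6 or ZT18 the cosine share of the members was thus near that of all peaks, as it was with library totals as the scaling (12.5% against 13.5%).

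Most of the calls fell on the stronger members. Among the 23 members that averaged 1000 normalized counts or more the cosine called 13 (56.5%), against 27.4% of the 7723 peaks of that strength in the whole data, and JTK called 6 (26.1%) against 20.8%. Among the 49 weaker members each test called 2 (4.08%), against 11.5% of all weaker peaks for the cosine and 10.4% for JTK. With cyclic loess, a scaling that evens the libraries over the whole range of peak strength, the cosine called 4 members in all (5.56%), which is below the 11.1% of all peaks, so the higher share of the members holds for TMM and not for this scaling. A cosine call with the fitted maximum between ZT3 and ZT9 was made for 11 of the 72 members (15.3%), against 5.92% of all peaks. By strength, it was made for 9 of the 23 members that averaged 1000 or more, against 1595 of 7723 such peaks. Among the weaker ones it was made for 2 of 49 members, against 2315 of 58343 peaks. The Ces1 window had none of these 11, and the maxima of its 3 cosine calls were ZT9.28, ZT9.34 and ZT12.2, of which the first 2 lie close to the ZT9 limit.

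**Figure D1:**
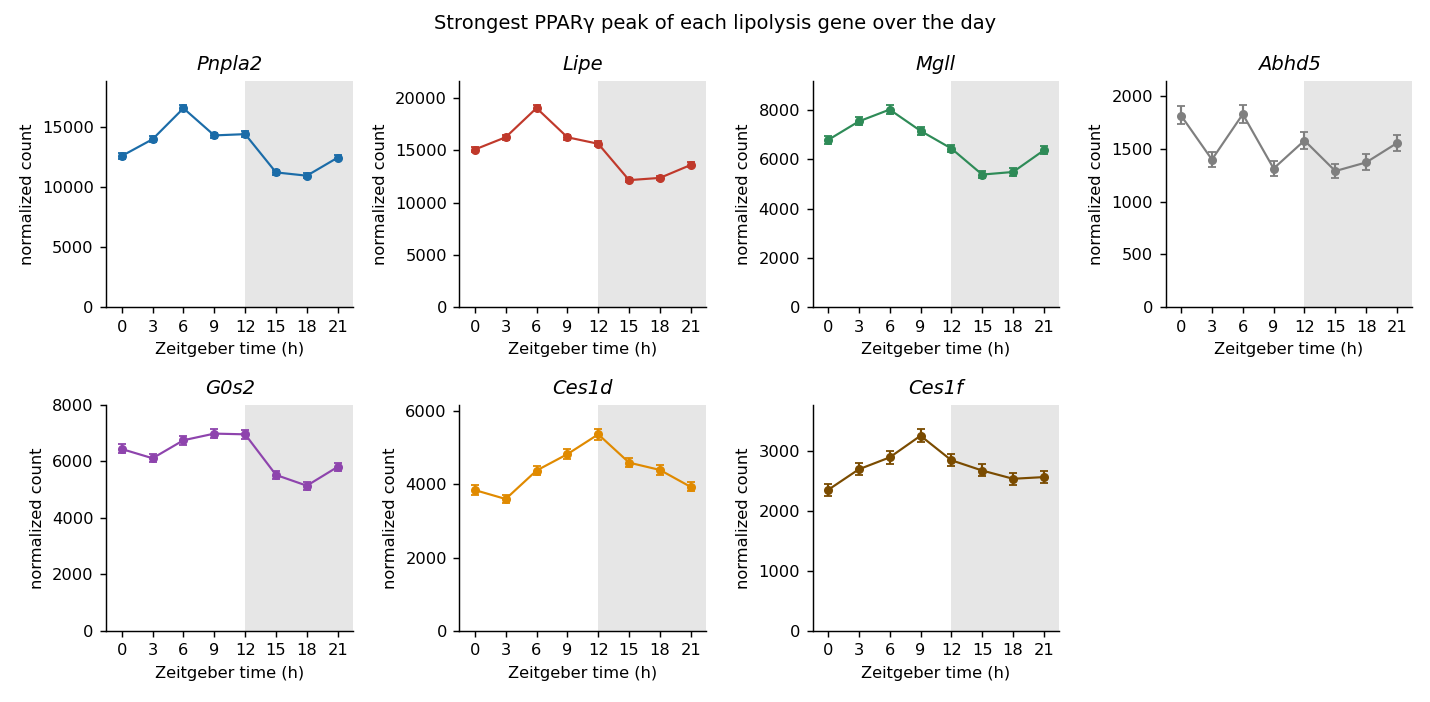
Normalized count (vertical axis) of the strongest peak of each gene against Zeitgeber time in hours (horizontal axis), 1 library per point. Bars are 95% Wilson intervals of the read count, which cover counting error only, and grey marks the dark phase; Pnpla2, Lipe and Mgll are highest at ZT6, Ces1f at ZT9 and Ces1d at ZT12.

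The peak that covers Pnpla2 (NCBI gene 66853, chromosome 7, 141455188 to 141460743, plus strand) was among the strongest in the tissue. Pnpla2 peak 4 spans 12133 bases, 141450753 to 141462885, and so takes in the whole gene as well as the start site of the neighbour Cracr2b. Its midpoint lies in intron 1, and its mean normalized count of 13336 ranked 8 of all peaks. The normalized count was 12616, 14014, 16599 and 14333 in the libraries of ZT0, ZT3, ZT6 and ZT9, 14438 at ZT12, and 11244, 10969 and 12477 in the dark phase libraries of ZT15, ZT18 and ZT21. Binding was highest in the middle of the light phase and lowest in the dark phase at ZT15 and ZT18, with the highest library 1.51 times the lowest. The 95% Wilson interval, which covers counting error only, was 16352 to 16850 at ZT6 and 10762 to 11181 at ZT18. The cosine called the peak (edgeR adjusted P = 0.00649) with a fitted maximum at ZT6.45, and exact JTK did not (adjusted P = 0.0826). The study's own JTK analysis reported an oscillating PPARγ peak annotated to Pnpla2, and the JTK used here was written anew. The cosine call was lost without the ZT18 library (0.0594) and with cyclic loess (0.833), while JTK passed with library totals (0.0260), with a period of 24 h only (0.0440) or without the ZT12 library (0.0417).

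The other 7 peaks of the Pnpla2 window lie nearest to other start sites, Pidd1, Rplp2, Snora52, Gm10575, Polr2l and Tspan4, and neither test called any of them with TMM and all libraries. Pnpla2 peak 5, over the start sites of Cd151 and Gm10575, was the steadiest of all members with a mean of at least 100. Its normalized count was 1295, 1408, 1317 and 1253 in the libraries of ZT0, ZT3, ZT6 and ZT9, 1256 at ZT12, and 1232, 1240 and 1379 in the dark phase libraries of ZT15, ZT18 and ZT21. These lie within 1.14 times of each other, so a peak of narrow range lay beside the strong one in the same libraries. JTK did call Pnpla2 peak 5 with library totals and without ZT12 or ZT21, and Pnpla2 peak 2 without ZT12.

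Abhd5, the ATGL activator (NCBI gene 67469, chromosome 9, 122351616 to 122381524, plus strand), had weaker binding. With TMM and all libraries neither test called a peak nearest to the Abhd5 start site, while JTK called Abhd5 peak 4 without ZT6. Abhd5 peak 2 covers the Abhd5 start site (122351260 to 122354461, midpoint in intron 1), and its mean of 1519 ranked 4197. The normalized count was 1815, 1398, 1829 and 1313 in the libraries of ZT0, ZT3, ZT6 and ZT9, 1579 at ZT12, and 1289, 1371 and 1555 in the dark phase libraries of ZT15, ZT18 and ZT21. ZT0 and ZT6 were high and ZT3 and ZT9 were low, so the values alternated in the light phase instead of following one wave. The highest was 1.42 times the lowest, with an exact JTK adjusted P of 1.0 and an edgeR cosine adjusted P of 0.330. Abhd5 peak 3, further along intron 1 of the gene, alternated in the same order through the light phase, between 926 at ZT3 and 1625 at ZT6. The light phase mean (ZT3, ZT6, ZT9) of Abhd5 peak 2 exceeded the dark phase mean (ZT15, ZT18, ZT21) by 0.11 on the log2 scale with TMM, and with cyclic loess this difference was -0.0014.

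At the far end of the Abhd5 window, Abhd5 peaks 7 and 8 lie nearest to the start of the long noncoding RNA gene A730085K08Rik, although peak 7 has its midpoint in intron 3 of Abhd5, and each was called by 1 test. Abhd5 peak 8 had a normalized count of 1066, 1285, 1538 and 1131 in the libraries of ZT0, ZT3, ZT6 and ZT9, 1172 at ZT12, and 739, 881 and 1122 in the dark phase libraries of ZT15, ZT18 and ZT21. It was highest at ZT6 and lowest at ZT15, 2.08 times apart, and was called by the cosine (edgeR adjusted P = 0.0189) and not by JTK (exact adjusted P = 0.0826). The cosine call was lost without ZT6, ZT15 or ZT18 (0.0822 to 0.102), and JTK called the peak without ZT9 (exact adjusted P = 0.0417) or ZT12 (0.00595). Abhd5 peak 7, with values from 163 at ZT15 to 284 at ZT6, was called by JTK (exact adjusted P = 0.0260) and not by the cosine (0.136). The JTK call was lost with library totals (0.212), with a period of 24 h alone (0.113) and without ZT15 (0.161).

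G0s2, the ATGL inhibitor (NCBI gene 14373, chromosome 1, 193272160 to 193273188, minus strand), lies whole within a peak of 5656 bases. G0s2 peak 6 (193270093 to 193275748) had a mean of 6215, rank 136. The normalized count was 6440, 6113, 6751 and 6986 in the libraries of ZT0, ZT3, ZT6 and ZT9, 6961 at ZT12, and 5522, 5141 and 5809 in the dark phase libraries of ZT15, ZT18 and ZT21. A plateau from ZT6 to ZT12 was followed by the lowest values at ZT15 and ZT18, and ZT9 was 1.36 times ZT18. The cosine call was marginal (edgeR adjusted P = 0.0483, fitted maximum ZT7.07), JTK made none (exact adjusted P = 0.467), and the cosine call was lost in 12 of 16 alternatives, among them every omission of a library except those of ZT0 and ZT3 (0.0562 without ZT12 to 0.264 without ZT18). G0s2 peak 7, 5408 bases upstream of the gene, had the same plateau, with values of 2608 at ZT18 to 3313 at ZT12. It was not called (edgeR adjusted P = 0.0573, exact JTK adjusted P = 0.212), though JTK called it without ZT12. The cosine also called G0s2 peak 5, which lies at Hsd11b1, the gene of an enzyme that regenerates active glucocorticoid, with a high of 2541 at ZT12 and a low of 1934 at ZT18 (edgeR adjusted P = 0.0310). This call was lost with library totals, cyclic loess or a 12-h term and without ZT0, ZT9, ZT12, ZT15, ZT18 or ZT21 (0.0508 to 0.111). JTK did not call this peak (exact adjusted P = 0.0826), but did so with 24 h as its only period (0.0440) and without ZT18 (0.00595).

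Lipe (NCBI gene 16890, chromosome 7, minus strand) carried the strongest peak of the members by mean normalized count. Per kb of length Mgll peak 5 was higher, at 1196 against 1113 for Lipe peak 3. Lipe peak 3 spans 13506 bases, 25383420 to 25396925, covers both curated Lipe start sites and one of 4732471J01Rik, and its mean of 15038 ranked 4 of all peaks. Lipe peak 3 measured 15071, 16245, 19034 and 16241 in the libraries of ZT0, ZT3, ZT6 and ZT9, 15616 at ZT12, and 12140, 12356 and 13597 in the dark phase libraries of ZT15, ZT18 and ZT21. The libraries from ZT3 to ZT12 were all above those of ZT15, ZT18 and ZT21, and ZT6 was 1.57 times ZT15. The Wilson interval was 18770 to 19303 at ZT6 and 11930 to 12355 at ZT15. Both tests called it, JTK with an exact adjusted P of 0.0260 and a phase of 6.0 h, and the cosine with an edgeR adjusted P of 0.00202 and a fitted maximum at ZT5.79. The JTK call was lost without the ZT3, ZT6 or ZT9 library (0.161 in each case) and with cyclic loess (0.0826), and the cosine call only with cyclic loess (0.365).

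Lipe peak 2 (25376063 to 25382654), at the 3′ end of Lipe and with its midpoint in 4732471J01Rik, was called by both tests too. Its normalized count was 2607, 2925, 3041 and 2847 in the libraries of ZT0, ZT3, ZT6 and ZT9, 2777 at ZT12, and 2602, 2329 and 2534 in the dark phase libraries of ZT15, ZT18 and ZT21. Like the main Lipe peak it was highest at ZT6, but its range was smaller, 1.31 times from ZT18 to ZT6, and of its dark phase values that of ZT15 was the highest (exact JTK adjusted P = 0.00595, edgeR cosine adjusted P = 0.0440). Omitting any single library ended the cosine call (0.0577 to 0.250), and omitting ZT18 or ZT21 ended the JTK call (0.161). Cyclic loess ended both calls (exact JTK adjusted P = 1.0, edgeR cosine adjusted P = 0.588), and the cosine call was also lost with library totals (0.150), upper-quartile factors (0.0525) and a 12-h term in the model (0.105). Lipe peaks 1 and 4 were weak, with means of 121 and 324, and were not called.

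Mgll (NCBI gene 23945, chromosome 6, 88724412 to 88828360, plus strand) had the most peaks, 13 with a Mgll start site as the nearest and 7 further into the long gene or past its end. Mgll peak 5 (88729339 to 88734896, in an intron) was the strongest, with a mean of 6649 that ranked 108. Counts were 6785, 7543, 8024 and 7160 in the libraries of ZT0, ZT3, ZT6 and ZT9, 6442 at ZT12, and 5383, 5489 and 6371 in the dark phase libraries of ZT15, ZT18 and ZT21. Binding was high from ZT3 to ZT9 and lowest at ZT15 and ZT18, a ratio of 1.49 between ZT6 and ZT15. JTK gave an exact adjusted P of 0.00595 with a phase of 6.0 h, and the cosine an edgeR adjusted P of 0.00217 with a maximum at ZT4.90. JTK called the peak in all 14 alternatives (0.00317 to 0.0417), cyclic loess included, and the cosine in 15 of 16, with 0.0516 under cyclic loess.

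Mgll peak 4 (88723834 to 88728795) lies over the Mgll start sites, and its normalized count was 3592, 4079, 4328 and 3772 in the libraries of ZT0, ZT3, ZT6 and ZT9, 3279 at ZT12, and 3241, 3025 and 3489 in the dark phase libraries of ZT15, ZT18 and ZT21. It ran in parallel with peak 5, 1.43 times from ZT18 to ZT6, and was called by both tests (exact JTK adjusted P = 0.00595, edgeR cosine adjusted P = 0.00952). Cyclic loess ended both calls (exact JTK adjusted P = 0.0826, edgeR cosine adjusted P = 0.152), and the cosine call was also lost without ZT6 (0.0511) or ZT18 (0.0761). Mgll peak 2, which holds the exact DR1 element, had a normalized count of 1105, 1196, 1253 and 1053 in the libraries of ZT0, ZT3, ZT6 and ZT9, 1050 at ZT12, and 831, 978 and 941 in the dark phase libraries of ZT15, ZT18 and ZT21. It was 1.51 times higher at ZT6 than at ZT15 and was called by the cosine (edgeR adjusted P = 0.0341) but not by JTK (exact adjusted P = 0.0826). The cosine call was lost with library totals, cyclic loess or a 12-h term and without ZT6, ZT15, ZT18 or ZT21 (0.0598 to 0.159), and JTK called the peak with 24 h as its only period, with tied template points kept tied and without ZT18 or ZT21 (0.0417 to 0.0476).

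Further into the gene the cosine called Mgll peaks 9, 14 and 16 with maxima at ZT4.89, ZT7.12 and ZT5.08. Peak 16 had the widest range of these, from 187 at ZT15 to 380 at ZT6, a ratio of 2.03 (edgeR adjusted P = 0.0184). All 3 calls were lost without ZT6 or ZT18 (0.0634 to 0.112), those of peaks 9 and 16 also without ZT15, that of peak 9 with cyclic loess and that of peak 14 with library totals and without ZT9 or ZT21. JTK called none of the 3, except peak 9 without ZT0 or ZT3 and peaks 14 and 16 without ZT12 (exact adjusted P = 0.0417 in each case). Mgll peaks 7, 10 and 11, with means above 1000 and in the same gene, were not called, and peak 10 stayed between 1204 and 1430. Of the 20 Mgll peaks 16 were higher in the light phase than in the dark phase, against 48.4% of all peaks and 74.3% of all peaks that averaged 1000 or more. The cosine called 6, against 13.4% of all peaks and 27.4% of those that strong, all with a maximum between ZT3 and ZT9.

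**Figure D2:**
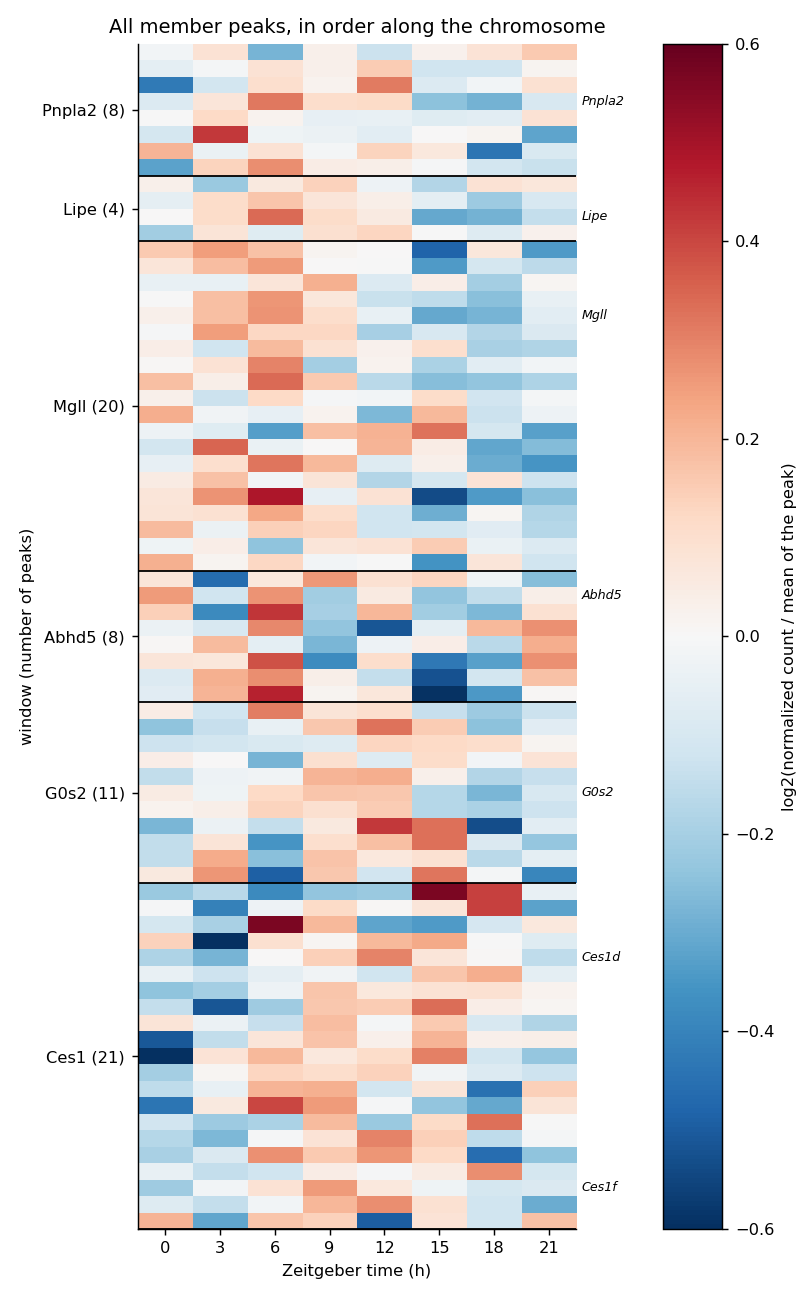
Every member peak as a row, by window and in order along the chromosome, with log2 of the normalized count over the mean of the peak in each of the 8 libraries (columns, Zeitgeber time in hours). Red is above and blue below the peak's mean, the colours saturate at 0.6 on either side, and gene names mark the strongest peaks. Of the 72 rows, 24 (33.3%) have their highest value at ZT6, against 17.4% of all peaks. Among peaks with a mean of 1000 or more the shares are 56.5% of members and 34.4% of all peaks. Among weaker ones they are 22.4% and 15.2%.

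On chromosome 8, Ces1d (NCBI gene 104158, 93166072 to 93197804, minus strand), which encodes a triacylglycerol hydrolase, had its strongest peak over the start site, Ces1 peak 5 (93192756 to 93199746). Its mean of 4364 ranked 400. Over the day it read 3842, 3598, 4375 and 4823 in the libraries of ZT0, ZT3, ZT6 and ZT9, 5363 at ZT12, and 4591, 4391 and 3927 in the dark phase libraries of ZT15, ZT18 and ZT21. Binding climbed from ZT3 to the light-to-dark transition at ZT12 and declined through the night, 1.49 times from lowest to highest. The Wilson interval was 5220 to 5511 at ZT12 and 3485 to 3715 at ZT3. Both tests called it (exact JTK adjusted P = 0.0260, edgeR cosine adjusted P = 0.00707), with a fitted maximum at ZT12.2, and the cosine call held in all 16 alternatives (up to 0.0427). The JTK call was lost without the ZT6, ZT12 or ZT18 library (0.161 in each case).

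Ces1f (NCBI gene 234564, 93256236 to 93279766, minus strand), a neighbouring carboxylesterase gene, had its strongest peak over and upstream of its start site, Ces1 peak 19 (93278260 to 93285572), with a mean of 2732. Its libraries gave 2355, 2700, 2899 and 3262 in the libraries of ZT0, ZT3, ZT6 and ZT9, 2852 at ZT12, and 2680, 2542 and 2570 in the dark phase libraries of ZT15, ZT18 and ZT21. The highest library was ZT9 and the lowest ZT0, 1.39 times apart. JTK called it with an exact adjusted P of 0.00595 and a phase of 9.0 h, and the cosine narrowly (edgeR adjusted P = 0.0443, maximum ZT9.28). The JTK call was lost under cyclic loess (0.212), and the cosine call with library totals (0.0954), upper-quartile factors (0.0522), cyclic loess (0.132) or a 12-h term in the model (0.0870) and without the ZT0, ZT6, ZT9, ZT12, ZT15 or ZT18 library (0.0603 to 0.212). Ces1 peak 20, 7988 bases upstream of Ces1f and weaker, was called by JTK only, with 149 at ZT21 and 222 at ZT12 as extremes (exact adjusted P = 0.0260). This call was lost with library totals, cyclic loess or tied template points kept tied and without ZT6, ZT9, ZT12, ZT15 or ZT21 (0.0714 to 0.161).

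The other strong peak in the cluster, Ces1 peak 12, lies 4898 bases upstream of Ces1e. Its normalized count was 3173, 3684, 3996 and 3931 in the libraries of ZT0, ZT3, ZT6 and ZT9, 4016 at ZT12, and 3600, 3452 and 3350 in the dark phase libraries of ZT15, ZT18 and ZT21. It was high from ZT6 to ZT12, 1.27 times from ZT0 to ZT12, and the cosine called it (edgeR adjusted P = 0.0414) while JTK did not (exact adjusted P = 0.0826). The cosine call was lost with library totals, cyclic loess or a 12-h term and without any library but that of ZT3 (0.0720 to 0.112). JTK in turn called it with library totals (exact adjusted P = 0.00595), with cyclic loess (0.0260) and without ZT9 (0.0417). The widest range of any member with a mean of at least 100 was that of Ces1 peak 4 in intron 7 of Ces1d, and it came from a single low library: 240, 121.6, 233 and 220 in the libraries of ZT0, ZT3, ZT6 and ZT9, 250 at ZT12, and 255, 218 and 208 in the dark phase libraries of ZT15, ZT18 and ZT21. Neither test called it despite the 2.099-fold range.

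The Ces1 genes are close paralogs, and reads from repeated sequence can be assigned to the wrong copy. Of the 50-base stretches of the reference within the peak, 3.36% recur in the genome for the strongest Ces1d peak, 0.413% for that of Ces1f and 1.29% for Ces1 peak 12, so most of their sequence is unique at that length. In Ces1 peak 10 the share was 19.5%.

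**Figure D3:**
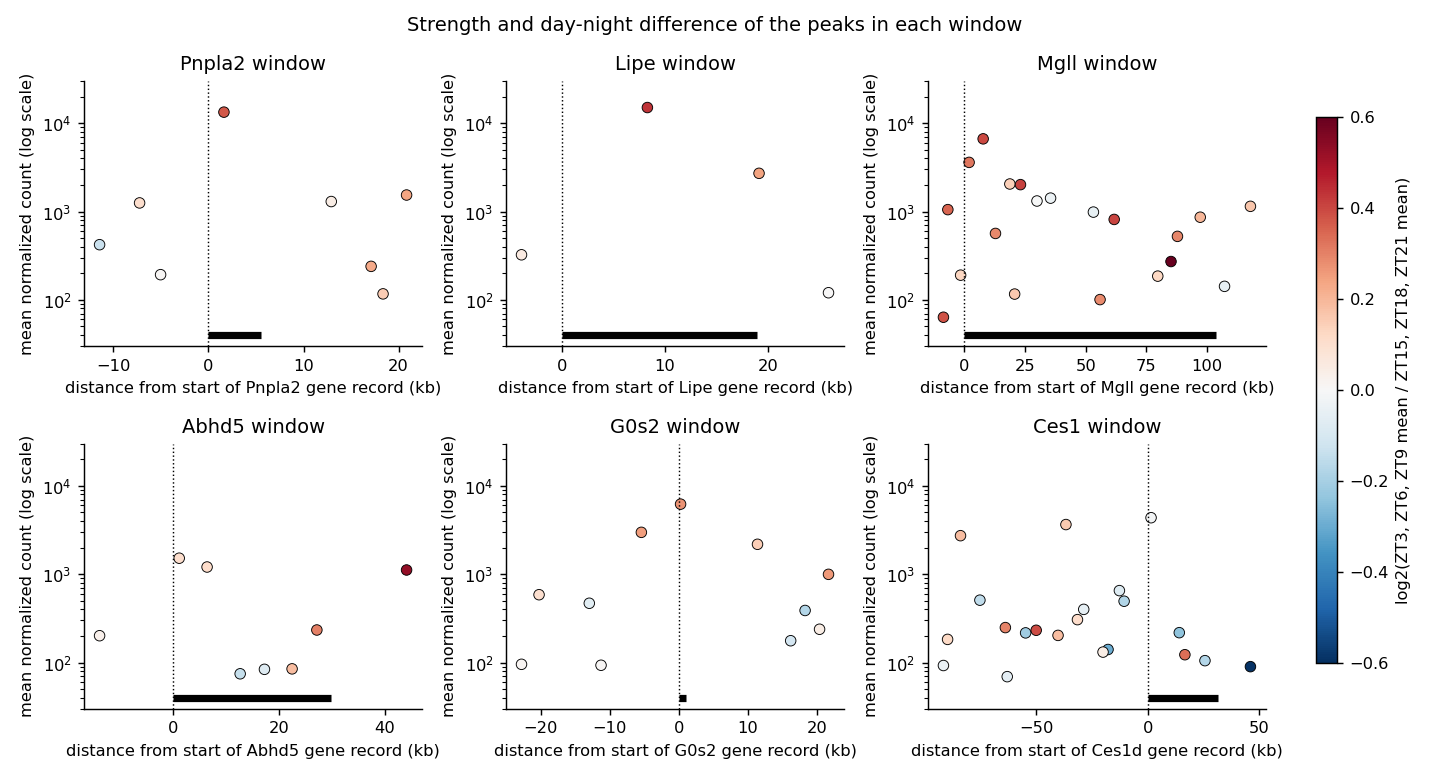
Mean normalized count of each member peak (vertical axis, log scale) against the distance of its midpoint from the start of the RefSeq gene record in the direction of transcription (horizontal axis, kb; the black bar is the gene, Ces1d for the Ces1 window). Colour gives log2 of the ZT3, ZT6 and ZT9 mean over the ZT15, ZT18 and ZT21 mean, saturated at 0.6; the strongest peaks of Pnpla2, Lipe and Mgll are at or inside the gene and red, at 0.37, 0.44 and 0.40.

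Whether the loci moved together was asked with count ratios of the strongest peaks within a library, which do not depend on any single scaling factor per library. The ratio of Ces1d to Pnpla2 was 0.305, 0.257, 0.264 and 0.336 in the libraries of ZT0, ZT3, ZT6 and ZT9, 0.371 at ZT12, and 0.408, 0.400 and 0.315 in those of ZT15, ZT18 and ZT21. Ces1d was thus low against Pnpla2 in the morning and high in the first part of the night, 1.59 times apart. The exact JTK adjusted P was 0.00595, and 0.0357 after Benjamini-Hochberg adjustment over the 6 ratios tested, and without any one library the JTK value lay between 0.00595 and 0.0417. After cyclic loess, which scales by peak strength, the ratio ran from 0.265 at ZT3 to 0.389 at ZT15, 1.47 times, with the same exact JTK adjusted P of 0.00595. These pairs were chosen with the profiles of both genes known, so the value is not independent evidence of a difference.

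The remaining ratios were not called. Lipe to Pnpla2 stayed between 1.08 and 1.19 (exact JTK adjusted P = 0.0826) and Mgll to Pnpla2 between 0.446 and 0.538 (0.0826). Abhd5 to Pnpla2 ran from 0.0916 at ZT9 to 0.144 at ZT0 (exact JTK adjusted P = 0.212), G0s2 to Pnpla2 from 0.407 at ZT6 to 0.511 at ZT0 (1.0), and Ces1f to Ces1d from 0.532 at ZT12 to 0.750 at ZT3 (0.467). Without ZT21 the Lipe ratio, without ZT6 the Mgll ratio and without ZT3 the Abhd5 ratio came to 0.0417. Over the 8 libraries, which all loci share, the Pearson correlation of the log2 normalized counts with the Pnpla2 peak was 0.97 for Lipe, 0.90 for Mgll, 0.85 for G0s2, 0.60 for Ces1f, 0.48 for Abhd5 and 0.14 for Ces1d.

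**Figure D4:**
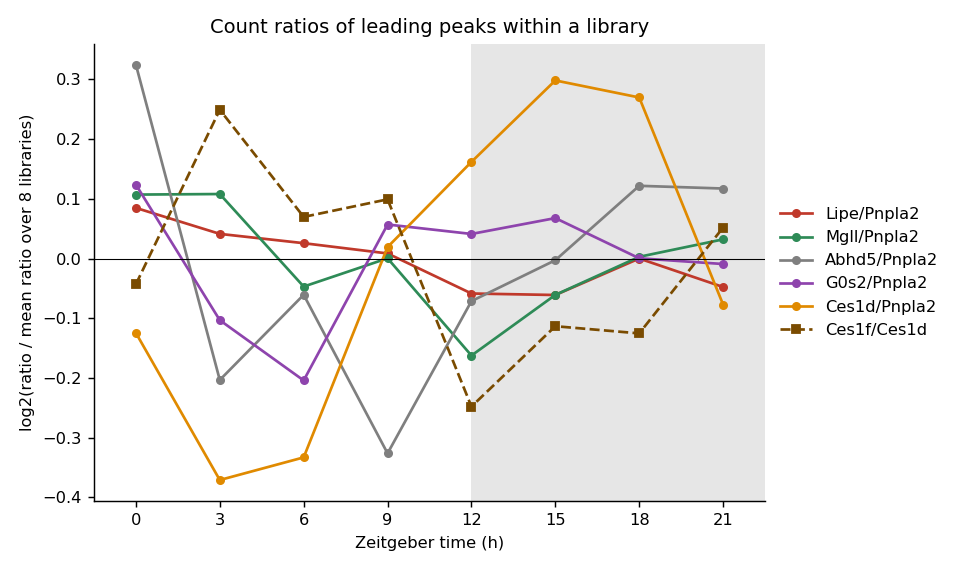
Count ratio of the strongest peaks of 2 genes within each library, as log2 of the ratio over its mean across the 8 libraries (vertical axis), against Zeitgeber time in hours (horizontal axis), with the dark phase in grey and no error drawn. The ratio of Ces1d to Pnpla2 is lowest at ZT3 (0.257) and highest at ZT15 (0.408), while that of Lipe to Pnpla2 stays between 1.08 and 1.19.

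The midday maximum was common to strong peaks. Over the strongest 1% of all peaks, 661 in number, the median peak stood at 1.14 times its own mean at ZT6 and 0.883 times at ZT18, the cosine called 61.7%, and 61.1% had their highest library at ZT6. The same relative values were 1.24 and 0.823 for the Pnpla2 peak, 1.27 and 0.822 for the Lipe peak, and 1.21 and 0.825 for the Mgll peak. The part of the library-wide share of reads in strong peaks in these profiles was not tested. Cyclic loess scaling, which removes any trend between strength and time from each library, took the light over dark difference of the Pnpla2 peak from 0.37 to 0.016 on the log2 scale, that of Lipe from 0.44 to 0.063 and that of Mgll from 0.40 to 0.13. The Ces1d difference went from -0.013 to -0.24.

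**Figure D5:**
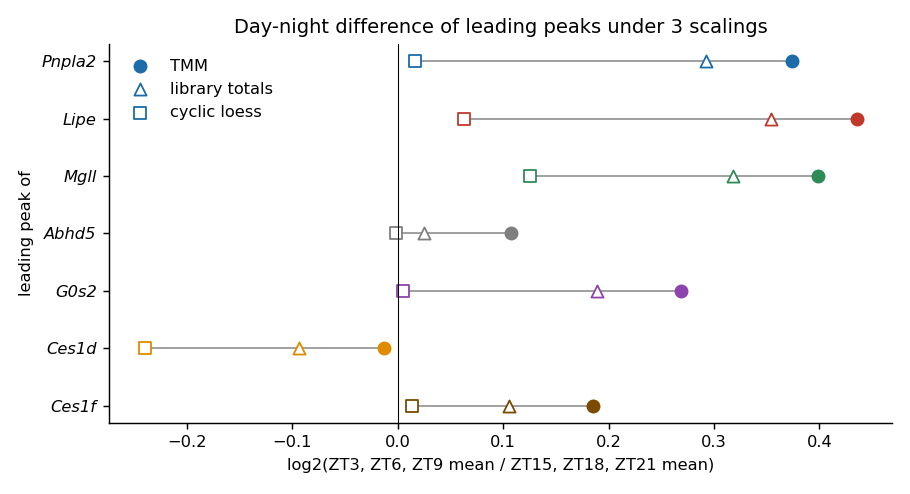
Log2 of the ZT3, ZT6 and ZT9 mean over the ZT15, ZT18 and ZT21 mean (horizontal axis) of the strongest peak of each gene under TMM, library totals and cyclic loess, from 1 library per time point. Under cyclic loess Mgll keeps 0.13 and Pnpla2 0.016, while Ces1d moves to -0.24.

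Over all 72 members the median light over dark difference was 0.11 on the log2 scale, with 50 peaks above 0, and over all peaks the median was -0.010 with 48.4% above 0. With library totals in place of TMM the medians were 0.032 for the members and -0.090 for all peaks, and with cyclic loess they were 0.062 and -0.0099. The difference between members and all peaks was thus 0.12 with TMM and with library totals and 0.072 with cyclic loess. Among peaks that averaged 1000 or more, the TMM medians were 0.19 for the members and 0.12 for all peaks. Among weaker ones they were 0.043 and -0.032. The highest library was 1.49 times the lowest in the median member and 1.52 times in the median of all peaks, and weaker peaks had wider ranges. At 1000 or more the medians were 1.42 for the members and 1.33 for all peaks, and below 1000 they were 1.57 and 1.55.

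The partners of these enzymes were read from a list of 47 genes of lipolysis, of which 44 had peaks, 253 in all outside the 6 windows. JTK called 29 of these peaks (11.5%) and the cosine 43, 30 of them with a maximum between ZT3 and ZT9, against 11.6%, 13.4% and 5.92% of all peaks. Lipid droplet coat genes had 9 of 29 peaks called by the cosine, at least one for each of the 8 genes, and 3 by JTK (31.0% and 10.3%). Of the 29, 14 averaged 1000 or more, among them the strongest peak of each gene, and 7 of these were called by the cosine and 3 by JTK (21.4%), where 27.4% and 20.8% of all peaks of that strength were called. Plin1, which holds ABHD5 at the droplet until protein kinase A phosphorylates it, had its strongest peak (mean 7384) called by the cosine with a maximum at ZT6.40 (edgeR adjusted P = 0.0106), and Plin5, which brings droplets and mitochondria together, at ZT6.21 (0.0227). JTK called this peak of Plin1 (exact adjusted P = 0.00595) and not that of Plin5 (0.0826). Plin3 differed, with a cosine maximum at ZT13.9 (edgeR adjusted P = 0.0266), and was not called by JTK (exact adjusted P = 0.0826). It was not the only one, since 6 of the 9 cosine calls at droplet coat genes had a maximum between ZT3 and ZT9.

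Among the receptors that switch lipolysis on or off the cosine called 13 of 60 peaks (21.7%) and JTK 5 (8.33%). Over all peaks these shares were 13.4% and 11.6%. Of the 18 receptor peaks that averaged 1000 or more the cosine called 6 (33.3%) and JTK 3 (16.7%). Of all peaks of that strength 27.4% and 20.8% were called. Among the 42 weaker receptor peaks the shares were 16.7% and 4.76%, against 11.5% and 10.4% of all weaker peaks. The cosine calls included the strongest peak of the β3-adrenergic receptor gene Adrb3, with a maximum at ZT2.46 (edgeR adjusted P = 0.0168). JTK did not call this peak (exact adjusted P = 0.0826). The strongest peak of Adora1, the antilipolytic adenosine receptor, was not called (mean 6732, range 1.11-fold, edgeR adjusted P = 0.603). Of the cyclic AMP signalling peaks 8 of 52 were called by the cosine, 6 of them at Prkar2b, a regulatory subunit of protein kinase A, and 7 by JTK (15.4% and 13.5%). Of the other hydrolases 2 of 60 were called by the cosine, at Ces1b and Aspg, and 4 by JTK (3.33% and 6.67%). Among those that averaged 1000 or more, the cosine called 5 of 11 cyclic AMP signalling peaks and 1 of 14 hydrolase peaks. JTK called 4 and 2 of them. Genes that handle the products had 5 of 16 peaks called by the cosine, 3 at Aqp7, the glycerol channel, and 2 at Fabp4, the fatty acid carrier. JTK also called 5 of the 16. The share was 31.25% in each test, against 13.4% of all peaks for the cosine and 11.6% for JTK. Each test called 4 of the 5 product peaks that averaged 1000 or more and 1 of the 11 weaker ones. Among the 69 peaks of the list that averaged 1000 or more, the cosine called 36.2% and JTK 26.1%, against 27.4% and 20.8% of all peaks of that strength. Among the 184 weaker ones they called 9.78% and 5.98%, against 11.5% and 10.4% of all weaker peaks. With cyclic loess the counts over the list were 22 for the cosine (8.70%, against 11.1% of all peaks) and 34 for JTK (13.4% against 11.01%).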

How the data were processed

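PPARγ ChIP-sequencing counts of 8 iBAT libraries were used. The authors deposited raw counts per peak on mm10. Per the study's methods and the submitters' processing notes, reads were aligned with BWA 0.7.17, peaks were called with MACS2 2.1.2 and counted with HTSeq 1.99.2, and those with an FDR under 0.05 in at least 6 of 8 samples were kept. Their treatment of duplicate reads is not given in the sources used here.

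TMM factors and the 24-h cosine (glmQLFit, glmQLFTest, 5 residual degrees of freedom, no filter on low counts) were computed with edgeR 4.0.16 on all peaks. JTK (two-sided) was written anew, with its templates and an exact null distribution. Each peak took the gene of the closest curated RefSeq start site (GRCm38.p6). The highest mean defined the strongest peak of a gene. Named in full were these, the peaks called by both tests, and the widest and narrowest range among means of at least 100. Mgll peak 2, Abhd5 peak 8 and Ces1 peak 12, and the other peaks given by their extremes, were chosen after their values were seen. Wilson intervals cover counting error only. Reads without molecular identifiers are not independent molecules, so the intervals can be too narrow even for that error. On 5000 simulated peaks of this design, a relative amplitude of 0.3 was called in 43 of 100 by JTK and 92 of 100 by the cosine, and unchanged peaks in 1.58% and 0.167%. JTK's estimate of the relative amplitude was lower than this in every member. The highest was 23.8% of the mean (Mgll peak 16), and Lipe peak 3 had 14.9%. The simulation held no trend between peak strength and library, so its shares are not those to be expected for the members. The members and lists were chosen with earlier results of these data known. Alternatives were other scalings (library totals, DESeq2 size factors, upper quartile, cyclic loess), filters, omission of each library, 24 h alone, stricter thresholds and DESeq2's likelihood ratio test. Templates that keep ties, a 12-h term and ratios after cyclic loess were added after seeing the data.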

Additional observations from a re-analysis of the deposited data

How the results depend on the processing

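Cyclic loess called 4 members by JTK and 4 by the cosine, 2 of the 7 strongest peaks by JTK and 1 by the cosine, and 22 peaks of the pathway list by the cosine, against 8, 15, 4, 6 and 43, while JTK called 34 peaks of that list against 29. Of all peaks, 11.01% and 11.1% were then called by JTK and the cosine, against 5.56% of the members in either test and 13.4% and 8.70% of the list. Library totals gave 9 members by the cosine, 12.5% against 13.5% of all peaks. A threshold of 0.01 left 4 members (5.56%, against 4.66% of all peaks) and 2 strongest peaks by JTK and 5 members (6.94% against 3.40%) by the cosine. A period of 24 h alone gave 13 JTK members (18.1% against 14.98%), and the exact permutation P of the best template without Bonferroni adjustment gave 18 of 72, against 21.8% of all peaks. The members' median light over dark difference of 0.11 became 0.032 with library totals and 0.062 with cyclic loess. A limit of 10 kb to the start site cut the 38 peaks assigned to a member gene to 17, and a limit of 2 mismatches raised the peaks with a DR1 element from 5 to 24. With one library left out, JTK called 6 to 15 members and 2 to 4 strongest peaks, and the cosine 3 to 17 and 3 to 6, while the shares of all peaks ran from 11.2% to 16.4% for JTK and from 4.64% to 16.96% for the cosine. The exact JTK adjusted P over these omissions ran from 0.0417 to 0.452 for Lipe to Pnpla2 and Mgll to Pnpla2, 0.0417 to 1.0 for Abhd5 to Pnpla2, 0.452 to 1.0 for G0s2 to Pnpla2, 0.00595 to 0.0417 for Ces1d to Pnpla2 and 0.161 to 1.0 for Ces1f to Ces1d. No called peak or ratio moved its phase by more than 6 h, while the Abhd5 light over dark difference turned from 0.11 to -0.0014 with cyclic loess. The cause of these shifts was not tested.

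Of the member peaks called by the cosine with TMM, 4 of 15 were kept under cyclic loess, 14 under DESeq2 size factors and 14 in DESeq2's likelihood ratio test. No paired analysis was possible because each time point has 1 library, a pool of mice, and the labels give no replicate numbers. The Wilson intervals cover counting error only, and the spread between animals or pools cannot be had from 1 library per time point.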

Other observations

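Some peaks far from the lipolysis genes followed the same course. Over the 7700 peaks outside the windows that averaged 1000 normalized counts or more, the Pearson correlation of log2 normalized counts across the 8 libraries was highest with the strongest Lipe peak for a peak at Acsl1, the gene of an acyl-CoA synthetase that activates fatty acids (0.997), and 311 peaks reached 0.95. For Pnpla2 it was a peak at Ilrun (0.995, 253 peaks at 0.95 or above) and for Mgll a peak whose nearest start site is Cul1 (0.997, 266 peaks). The strongest Ces1d peak was closest to one at Per2, a clock gene with a repressor role (0.990, 21 peaks), that of G0s2 to one near Spsb1 (0.969, 7 peaks), that of Abhd5 to one near Zfand6 (0.970, 2 peaks) and that of Ces1f to one near Klf3 (0.954, 1 peak). All points share the same libraries, the maxima were taken over many candidates, and these values are descriptions only.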
